A study of Mus musculus with 2 samples.

Results

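Calca-positive neurofilament neurons without Tac1 were studied in 2 single-cell 3′ RNA libraries from the dorsal root ganglia of mice at postnatal day 4. The members were chosen by measured counts of Calca, Tac1, Nefh and other genes, and numbered 106 of 3924 neuron barcodes and 19717 barcodes in all, 48 in the cKO library and 58 in the flox library. The cKO library came from mice with Ptges3 flox/flox alleles and Dhh CRE+, in which regulatory sequence of the desert hedgehog gene places Cre recombinase in Schwann cells and related glia. The flox library came from mice with the same Ptges3 flox/flox alleles and no Cre named in the labels, so both genotypes carried the floxed gene. Ganglia of all axial levels were dissociated with enzymes, and the sources used here do not give the number of mice per library. With 1 library per genotype no difference between the genotypes has a replicate check and none was tested; the 95% intervals cover counting error only.

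A neuron barcode had at least 5000 UMIs (molecular identifiers that count captured RNA molecules), at most 15% mitochondrial UMIs and at least 0.4% of its UMIs from Snap25, Stmn2, Tubb3 and Prph together. Members then needed Calca at 0.2% of UMIs or more, at most 1 UMI of Tac1 and at least 3 UMIs of Nefh. They also had under 3 UMIs of Mrgprd, under 10 of Sst and Nppb together, under 2 of Pvalb, and not both Th and Slc17a8. In the cKO library 550 of 2294 neurons passed the Calca limit, 114 of these also the Tac1 limit, 65 also the Nefh limit and 48 the whole gate. In the flox library 326 of 1630 neurons passed the Calca limit, 99 also the Tac1 limit, 73 also the Nefh limit and 58 the whole gate.

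Calca encodes the neuropeptide CGRP, which peptidergic nociceptors release in the skin and the spinal cord, and Tac1 encodes substance P, which many of the same neurons make. Nefh encodes the heavy neurofilament chain, which gives large myelinated axons their calibre, and Nefl and Nefm encode the light and medium chains. In adult mice, neurons with CGRP and heavy neurofilament include nociceptors with thinly myelinated axons. Kit, the receptor for stem cell factor, Mrgpra3, an itch receptor activated by chloroquine, and Ntrk3, the receptor for neurotrophin-3, mark different groups of sensory neurons, and at the first postnatal days several of these identities are still being sorted out.

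Depth differed between the libraries and bears on every comparison between the genotypes. Members had a median of 18812 UMIs (5385 to 66426) in the cKO library and 67056.5 UMIs (5005 to 128606) in the flox library, and medians of 4895.5 and 8053 genes. Barcodes low in neuron genes, with under 0.1% of UMIs from those genes, had medians of 6856 UMIs (cKO) and 8583 UMIs (flox). Shares of cells with a UMI of a gene rise with depth. Below they are matched for depth only where cells were thinned. The summed members held 1239634 UMIs in the cKO library and 3746024 UMIs in the flox library, out of 78144437 and 132620886 UMIs in the whole libraries. Levels are given as CPM, the UMIs of a gene summed over the cells of a class and scaled to 1000000 UMIs, and a ratio between the genotypes is the log2 of the cKO level over the flox level. The libraries shared 23 barcodes, none of them a member.

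Some members were nearly the same cell by their counts. Among the 24 cKO members with at least 20000 UMIs, 7 formed a set whose counts differed by little more than sampling noise. Their chi-square per degree of freedom, over genes with at least 10 UMIs in a pair, ran from 1.01 to 1.45, against a median of 3.25 over the 276 pairs and at least 1.67 to any member outside the set. These 7 cells held 44664 to 55396 UMIs each and 27.6% of all cKO member UMIs. Each held 3 to 8 UMIs of Mrgpra3, 14 to 28 of Gal, 31 to 109 of S100a13, 17 to 29 of Nefh and 9 to 24 of Col3a1, a fibrillar collagen of fibroblasts. Another 5 cKO neurons outside the gate, of 1005 with that depth, were as close to a cell of the set. There was 1 further close pair among cKO members (1.15) and 1 among flox members (1.09). Some of the results that these cells moved are given with each set counted once as well, a step chosen after the data were seen. It leaves 41 cKO and 57 flox members. Values given without this step may also move under it. What made the counts alike was not tested.

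Members made up 2.09% of neurons (1.55 to 2.76) in the cKO library and 3.56% (2.71 to 4.58) in the flox library. Of Calca neurons they made up 8.73% (6.50 to 11.4) in the cKO library and 17.8% (13.8 to 22.4) in the flox library. The gate uses absolute UMI limits and so moves with depth: on neurons thinned to 5000 UMIs it kept 54 cKO cells (2.35%) and 44 flox cells (2.70%), of which 26 in each library were members before. With each set of close cells counted once the shares were 1.79% in the cKO library and 3.50% in the flox library. Fewer neurons of this kind and a different capture of them cannot be told apart in these data.

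The 3 marker genes were all present, as the gate requires for Calca and Nefh. Calca stood at 3899 CPM (3790 to 4010) in cKO members and 5254 CPM (5181 to 5328) in flox members. Nefh stood at 659.9 CPM (615 to 707) in cKO members and 895 CPM (865 to 925) in flox members. Nefl, which the gate did not use, was found in all members, at 3798 CPM in cKO members against 2746 CPM in the other cKO neurons, and at 3559 CPM in flox members against 2089 CPM in the other flox neurons. Per cell Nefl ran from 849 to 16602 CPM with a median of 3288 in cKO members, and from 999 to 11076 CPM with a median of 2988 in flox members. Nefm stood at 1212 CPM in cKO members and 1282 CPM in flox members, against 1102 CPM in the other cKO neurons and 758 CPM in the other flox neurons. Tac1 was at 4.03 CPM in cKO members, with 1 UMI in 5 cells, and at 2.40 CPM in flox members, with 1 UMI in 9 cells.

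Many members lay near the limits. Calca made up 0.205% of UMIs in the lowest cKO member and 0.213% in the lowest flox member, with medians of 0.282% and 0.449%. Cells that passed all other limits reached 0.199% in the cKO library and 0.186% in the flox library. Between 0.2% and 0.3% lay 26 cKO and 12 flox members, and just under, between 0.1% and 0.2%, lay 37 cKO and 7 flox cells. Nefh was at exactly 3 UMIs in 6 members of each library, while 14 cKO and 8 flox cells missed the gate with 2 UMIs. Tac1 kept out 9 cKO and 2 flox cells with 2 UMIs. In the deepest cells 3 UMIs of Nefh are a low level, so the label neurofilament neuron fits the members unequally, as the plot of Nefh against depth shows.

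**Figure D1:**
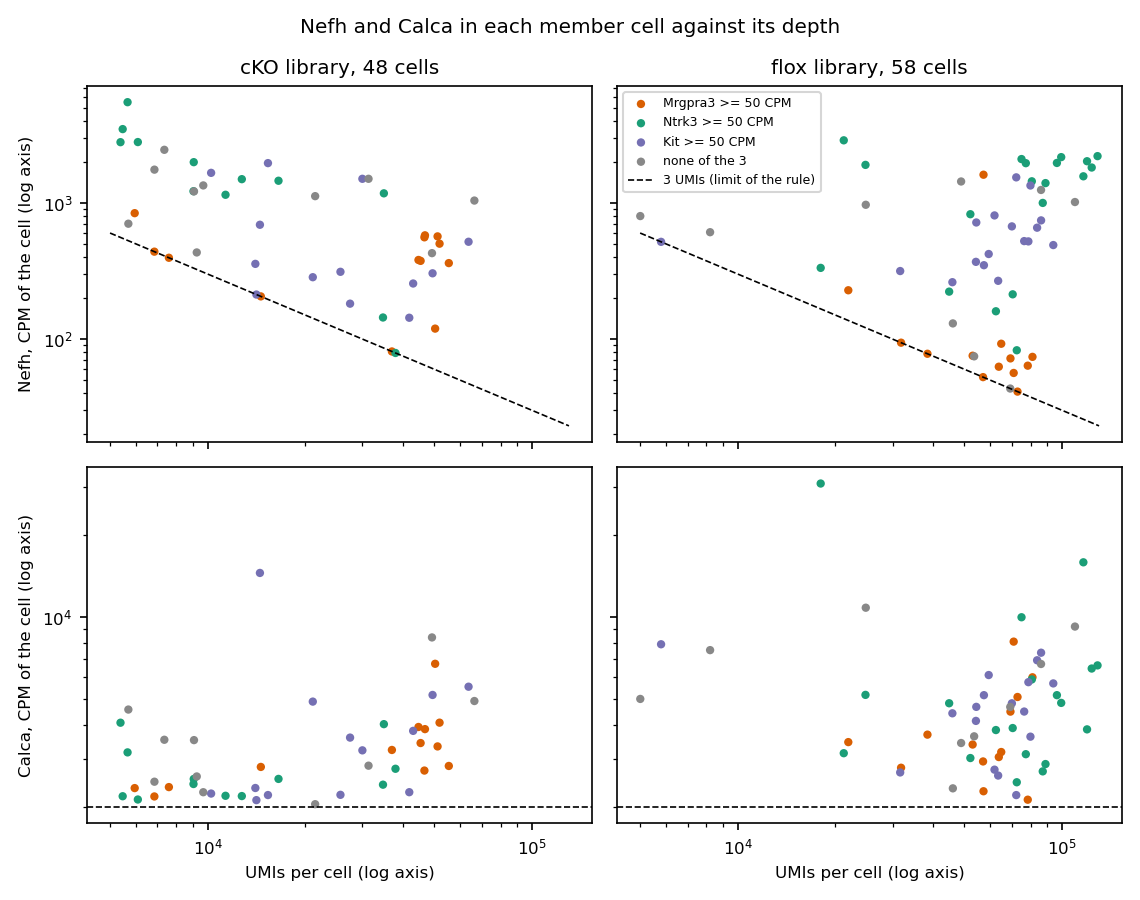
Nefh (top) and Calca (bottom) in each member, as CPM of the cell, against the cell's UMIs, all on log axes, with 48 cKO members on the left and 58 flox members on the right. The dashed line in the Nefh panels is the level of 3 UMIs, and in the Calca panels 0.2% of UMIs. Cells of the Mrgpra3 subset in the flox library sit close to the 3-UMI line, with a median of 4 Nefh UMIs, whereas the flox cells of the Ntrk3 subset have a median of 116.

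The members were a mixture, and 3 receptor genes divided most of them. Taking in turn cells with at least 50 CPM of Mrgpra3, then of Ntrk3, then of Kit, gave a Mrgpra3 subset of 13 of 48 cKO members (27.1%) and 13 of 58 flox members (22.4%). The Ntrk3 subset held 12 cKO members (25%) and 19 flox members (32.8%), the Kit subset 13 cKO members (27.1%) and 17 flox members (29.3%), and 10 cKO and 9 flox members met none of the limits. These subsets were drawn after the data were seen and are a description. In a cell of under 20000 UMIs a single UMI reaches the limit, and 7 cKO and 4 flox cells had Ntrk3 between 50 and 100 CPM. Before the order was applied, 4 cKO and 0 flox members were over the limit for both Mrgpra3 and Ntrk3, 5 cKO and 2 flox members for both Mrgpra3 and Kit, and 5 cKO and 6 flox members for both Ntrk3 and Kit.

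The Mrgpra3 subset was low in neurofilament in the flox library. Nefh stood at 399 CPM in the cKO subset, with a median of 17 UMIs per cell, and at 188 CPM in the flox subset, with a median of 4 UMIs. The 7 near-identical cKO cells are all in this subset and had 474 CPM of Nefh, while the other 6 cKO cells had 188 CPM, the same as the flox subset. Etv1, a transcription factor of several sensory lineages, stood at 172 CPM inside and 20.6 CPM outside the subset among cKO members, and at 494 CPM inside and 42.9 CPM outside among flox members. Nnat, a small membrane proteolipid, stood at 713 CPM inside and 133 CPM outside among cKO members, and at 1763 CPM inside and 266 CPM outside among flox members. Grik1, a kainate receptor subunit, was at 194 CPM inside and 41.3 CPM outside among cKO members, and at 364 CPM inside and 35.8 CPM outside among flox members. Lowest in the subset against the other members were Prkcb, a protein kinase C, and Thy1, a surface glycoprotein of neurons. Thy1 stood at 77.6 CPM inside and 509 CPM outside among cKO members, and at 40.8 CPM inside and 732 CPM outside among flox members.

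In the Mrgpra3 subset the near-identical cells set several cKO levels. S100a13, a calcium-binding protein, was at 1124 CPM in the 7 near-identical cKO cells, 221 CPM in the other 6 cKO cells and 48.6 CPM in the 13 flox cells. Gal, the neuropeptide galanin, was at 448 CPM in the 7 cKO cells, 90.0 CPM in the other 6 cKO cells and 11.8 CPM in the flox cells. Etv1 went the other way, at 55.6 CPM in the 7 cKO cells, 499 CPM in the other 6 cKO cells and 494 CPM in the flox cells. Counted once, the close sets leave 7 cKO cells and 12 flox cells in this subset.

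Heavy neurofilament was highest in the Ntrk3 subset, by a wide margin only in the flox library. Nefh stood at 1143 CPM in the cKO subset and 1485 CPM in the flox subset. Members over none of the receptor limits had 1031 CPM in the cKO library and 740 CPM in the flox library. Ntrk3 and Nefh levels had a Spearman rho of 0.28 over 48 cKO members and 0.59 over 58 flox members. Nefm stood at 2546 CPM inside and 973 CPM outside among cKO members, and at 1977 CPM inside and 839 CPM outside among flox members. Scn1a, a sodium channel of myelinated neurons, was at 74.1 CPM inside and 12.4 CPM outside among cKO members, and at 87.7 CPM inside and 17.5 CPM outside among flox members. Bcam, a laminin-binding adhesion molecule, and Hopx, a homeodomain protein that does not bind DNA, were also higher, Hopx at 529 CPM inside and 235 CPM outside among cKO members, and at 1099.5 CPM inside and 164 CPM outside among flox members. Gal was low here, at 106 CPM inside and 576 CPM outside among cKO members, and at 50.7 CPM inside and 273 CPM outside among flox members. The subset differed in depth between the libraries, with medians of 10204 UMIs in cKO cells and 77295 UMIs in flox cells. Among cKO members the subsets with more Nefh were also the shallower. Cells over none of the limits had a median of 9473 UMIs, the Kit subset 25668 UMIs and the Mrgpra3 subset 45344 UMIs. The gate asks for 3 UMIs of Nefh, so a shallow cell needs a higher level to pass. The part of this in the cKO order of the subsets was not tested.

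Galanin was highest in the Kit subset. Gal stood at 823 CPM in the cKO subset and 570 CPM in the flox subset, and Kit and Gal levels were correlated across cells, with a Spearman rho of 0.62 over 48 cKO members and 0.84 over 58 flox members. With close sets counted once the values were 0.64 over 41 cKO and 0.84 over 57 flox members. These points share their library and, through the shallow cells, their depth. Islr2, an adhesion protein of growing axons, was at 240.3 CPM inside and 41.4 CPM outside among cKO members, and at 170.2 CPM inside and 21.0 CPM outside among flox members. Npb, the peptide neuropeptide B, was at 67.5 CPM inside and 17.3 CPM outside among cKO members, and at 112 CPM inside and 19.8 CPM outside among flox members. S100a13 was highest here too, at 1949 CPM in the cKO subset and 2689.8 CPM in the flox subset.

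Of the list of CGRP subclass genes, Smr2 and Bmpr1b were sparse, but not every other gene was. Tafa1, of the same list, stood at 53.2 CPM in 25 cKO members and 77.1 CPM in 35 flox members. Prokr2, also listed, was at 32.5 CPM in cKO and 20.4 CPM in flox members with close sets counted once. Smr2, a marker of A-fibre CGRP neurons in adult mice, stood at 16.9 CPM in cKO members, 85.7% of it in 1 cell, and at 11.48 CPM in 11 flox members. Of the cKO UMIs, 19 of 21 fell in the cells over none of the receptor limits (87.8 CPM), whereas the flox UMIs were split between those cells, with 21 UMIs (46.5 CPM), and the Ntrk3 subset, with 22 UMIs (15.1 CPM). Bmpr1b, a BMP receptor of another adult CGRP group, had 8 UMIs in 8 cKO members (16.7%) and 16 UMIs in 12 flox members (20.7%). Barcodes low in neuron genes had a Bmpr1b UMI in 1.28% of cKO and 1.97% of flox cells, at median depths of 6856 and 8583 UMIs. Th, the enzyme that begins catecholamine synthesis and a marker of C-fibre touch neurons, was found in 16.7% of cKO and 29.3% of flox members, at 16.1 and 28.6 CPM, beside 0% of cKO and 0.0951% of flox barcodes low in neuron genes. The gate left out cells with both Th and its usual partner Slc17a8, a vesicular glutamate transporter. Slc17a8 was at 0 UMIs in cKO members, which allows up to 2.98 CPM by the exact Poisson bound, and at 0.534 CPM in flox members.

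**Figure D2:**
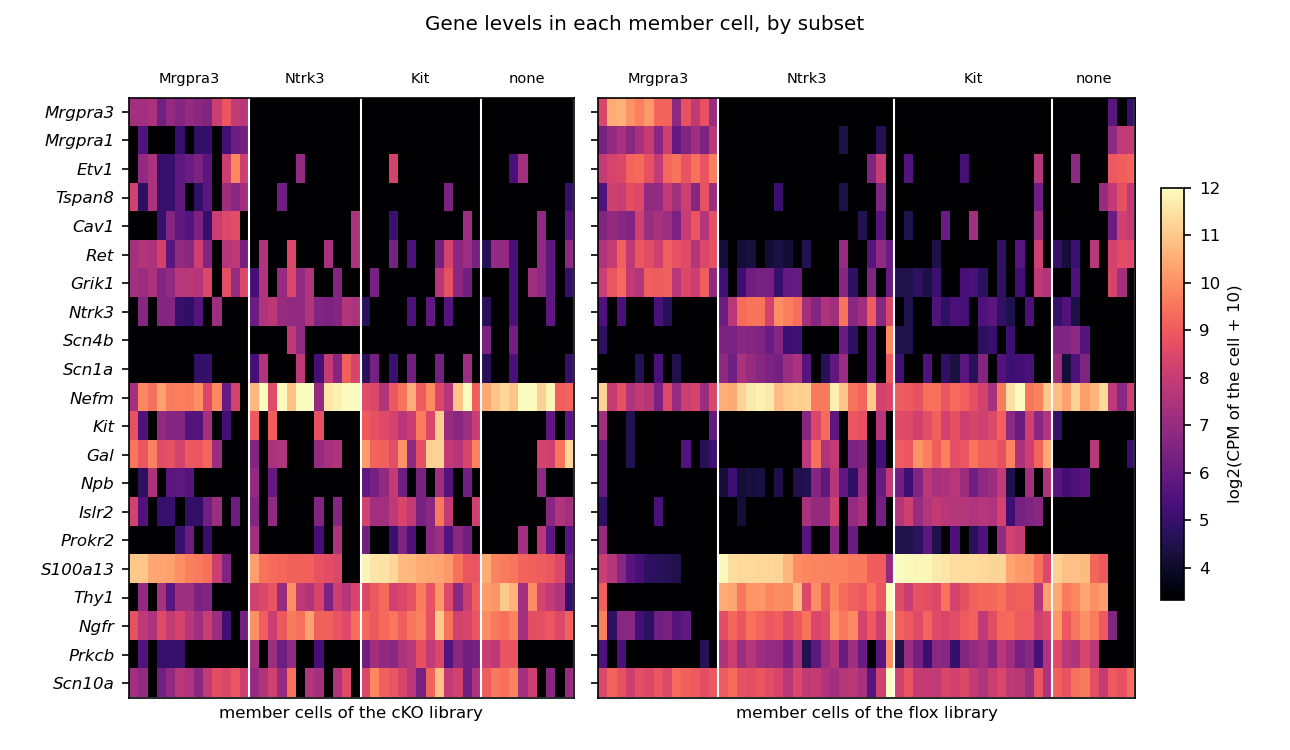
Levels of marker genes in each member, 48 cKO cells on the left and 58 flox cells on the right, ordered by subset (Mrgpra3, Ntrk3, Kit, none), with colour giving log2(CPM of the cell + 10). The Kit block carries Gal in both libraries, and S100a13 is high in the Mrgpra3 block of the cKO library (886 CPM) but low in that of the flox library (48.6 CPM).

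Single genes varied widely among the members. After thinning every member to 5000 UMIs, the variance over the mean was largest, by the smaller value of the libraries, for Malat1, a nuclear RNA, and Tmsb10, an actin-binding thymosin. Nefl and Nefm were next among neuron genes, with ratios of 16.2 in cKO and 6.46 in flox members for Nefl and 18.04 in cKO and 5.87 in flox members for Nefm. S100a13 followed, with 5.23 in cKO members and 5.92 in flox members. Fabp7 and Apoe, both made by satellite glia, were also among the 12 most variable. Apoe was found in 85.4% of thinned cKO members and 41.4% of thinned flox members, beside 79.7% of cKO and 73.1% of flox barcodes low in neuron genes.

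Against all other neurons of the same library, 77 of 8555 genes (0.900%) were at least 1 log2 unit higher in members in both libraries and 50 (0.584%) at least 1 unit lower, after 10 CPM was added to each level and the gate genes were left out. The gate was built on these same cells, so this describes the members and tests nothing. The median of all genes was -0.01 in the cKO library and -0.02 in the flox library. S100a13 (GRCm38 chromosome 3, 90514435 to 90524581, forward strand) led the list. It stood at 1139 CPM in cKO members and 119 CPM in the other cKO neurons, and at 1637 CPM in flox members and 119 CPM in the other flox neurons, differences of 3.16 and 3.68 log2 units.

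Next in the list were Kit, Ngfr, Prkcb, Sema5a and Thy1, among others. Kit stood at 186 CPM in cKO members and 25.5 CPM in the other cKO neurons, and at 129 CPM in flox members and 23.0 CPM in the other flox neurons. Ngfr, the low-affinity receptor of nerve growth factor, stood at 477 CPM in cKO members and 128 CPM in the other cKO neurons, and at 421 CPM in flox members and 100.1 CPM in the other flox neurons. Both receptors were found in both libraries, but Kit in fewer cells, 27 of 48 cKO members (56.2%) and 28 of 58 flox members (48.3%), beside 11.45% of cKO and 9.68% of flox barcodes low in neuron genes. Prkcb was at 83.9 CPM in cKO members and 11.6 CPM in the other cKO neurons, and at 92.9 CPM in flox members and 13.3 CPM in the other flox neurons. Sema5a, a guidance molecule, and Thy1 were higher as well, Thy1 at 348 CPM in cKO members and 83.4 CPM in the other cKO neurons, and at 592 CPM in flox members and 90.4 CPM in the other flox neurons.

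The remaining leading genes included Cplx2, a regulator of vesicle fusion, Bcl11b, a zinc-finger transcription factor, the protease inhibitor Serpinb1a, Trappc3l, Tafa1 and Npb. Cplx2 stood at 322 CPM in cKO members and 81.4 CPM in the other cKO neurons, and at 428 CPM in flox members and 59.8 CPM in the other flox neurons. Bcl11b stood at 88.7 CPM in cKO members and 17.7 CPM in the other cKO neurons, and at 106 CPM in flox members and 18.6 CPM in the other flox neurons. When each cell was thinned to 5000 UMIs, fewer genes could be measured, and 29 were higher and 4 lower; without the Mrgpra3 subset, left out after the data were seen, 156 were higher and 79 lower.

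Lowest in members against the other neurons were Grik1, Runx1, Ret and 9 further genes. Of the 6 measured genes in the list of non-peptidergic and itch genes, 0 were at least 1 log2 unit lower in both libraries. Grik1 stood at 98.4 CPM in cKO members and 475 CPM in the other cKO neurons, and at 103 CPM in flox members and 589.8 CPM in the other flox neurons. Runx1, the transcription factor that directs non-peptidergic nociceptors, stood at 40.3 CPM in cKO members and 157 CPM in the other cKO neurons, and at 13.9 CPM in flox members and 137 CPM in the other flox neurons. Ret, the signalling receptor of the GDNF family, stood at 90.3 CPM in cKO members and 237 CPM in the other cKO neurons, and at 101 CPM in flox members and 289.6 CPM in the other flox neurons. Cd44, Synpr, Uaca, Brinp2, Zfhx3, Cpne3, Abca5, Lap3 and Osbpl1a completed the 12 lowest, with differences from -1.26 to -1.86 log2 units in the cKO library and from -1.29 to -1.69 in the flox library.

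**Figure D3:**
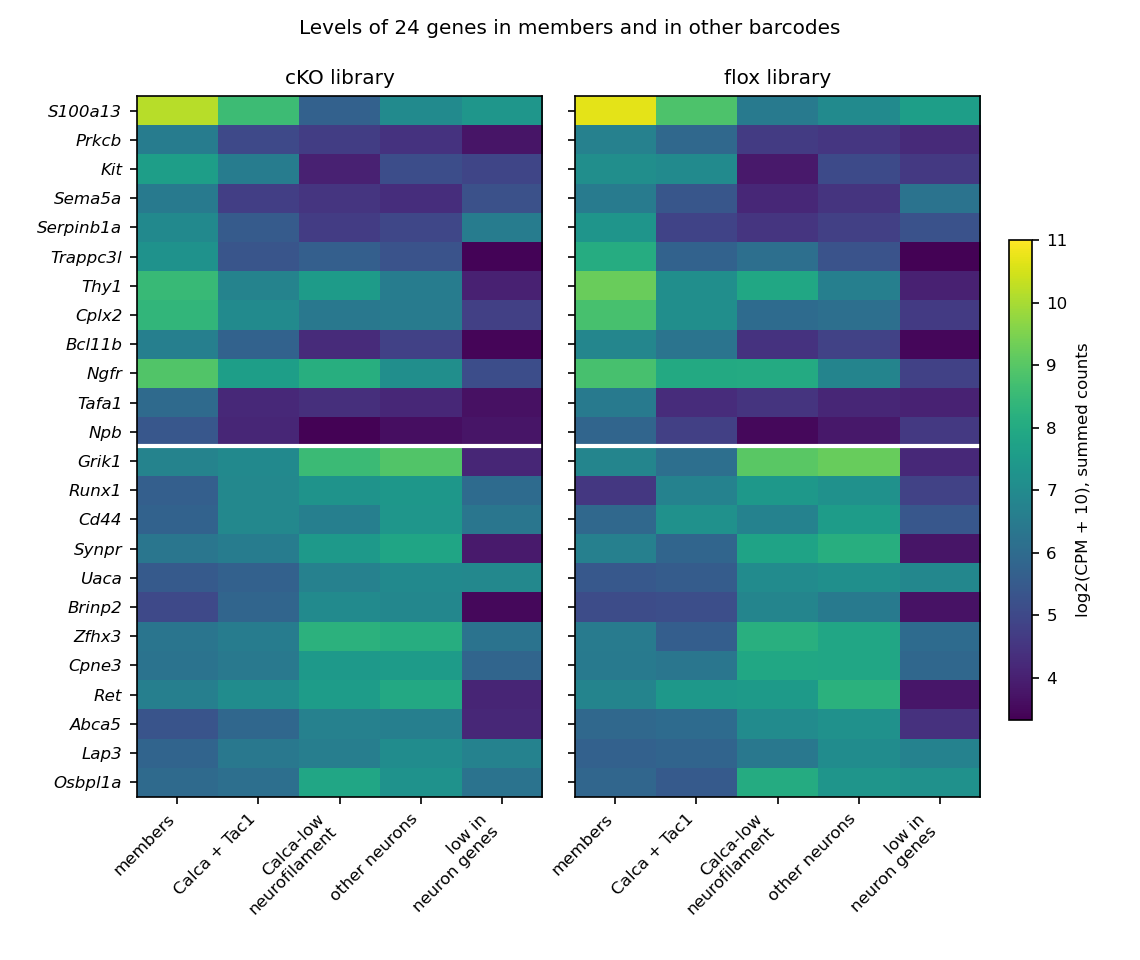
Levels of the 24 genes named for the comparison with other neurons, as colour on a log2(CPM + 10) scale, in members, Calca and Tac1 neurons, Calca-low neurofilament neurons, all other neurons and barcodes low in neuron genes, for the cKO library (left) and the flox library (right). S100a13, Ngfr and Thy1 are highest in the members' column in both libraries. Ngfr is also found in Calca-low neurofilament neurons (274 CPM in cKO, 247 CPM in flox). Kit is nearly as high in flox Calca and Tac1 neurons (117 CPM) as in flox members (129 CPM), and Grik1 and Runx1 are highest in other columns.

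Calca neurons with Tac1, the peptidergic nociceptors, share the Calca limit with the members and numbered 422 cKO and 196 flox cells. Members were at least 1 log2 unit higher in both libraries for 33 of 8555 genes (0.386%) and lower for 13 (0.152%). Fgf12, an intracellular protein that binds sodium channels, stood at 538 CPM in cKO members and 168 CPM in cKO Calca and Tac1 neurons, and at 692 CPM in flox members and 120.4 CPM in flox Calca and Tac1 neurons. Hopx stood at 279.9 CPM in cKO members and 87.4 CPM in cKO Calca and Tac1 neurons, and at 529 CPM in flox members and 75.3 CPM in flox Calca and Tac1 neurons. Trappc3l, Tafa1, Thy1 and S100a13 were the others highest. Kit stood at 186 CPM in cKO members and 83.9 CPM in cKO Calca and Tac1 neurons, and at 129 CPM in flox members and 117 CPM in flox Calca and Tac1 neurons, differences of 1.06 and 0.13 log2 units. Ngfr was at 188 CPM in cKO and 242 CPM in flox Calca and Tac1 neurons, differences of 1.30 and 0.78 log2 units. Lowest was Adcyap1, the peptide PACAP, at 82.3 CPM in cKO members and 278 CPM in cKO Calca and Tac1 neurons, and at 69.1 CPM in flox members and 512 CPM in flox Calca and Tac1 neurons. Gfra3, the artemin receptor, stood at 13.7 CPM in cKO members and 92.6 CPM in cKO Calca and Tac1 neurons, and at 48.1 CPM in flox members and 168 CPM in flox Calca and Tac1 neurons. Gal, at 504 CPM in cKO members and 186 CPM in flox members, was also below the Calca and Tac1 neurons, at 1025 and 1192 CPM.

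Neurofilament neurons with Calca under 0.05% of UMIs, 405 cKO and 307 flox cells, share the Nefh limit and lack the peptide. Members were higher for 103 of 8555 genes (1.20%) and lower for 63 (0.736%). Scg2, a secretogranin of dense-core vesicles, stood at 433 CPM in cKO members and 25.2 CPM in cKO Calca-low neurofilament neurons, and at 422 CPM in flox members and 31.6 CPM in flox Calca-low neurofilament neurons. Kit stood at 6.37 CPM in cKO and 4.33 CPM in flox Calca-low neurofilament neurons, far below its level in members. Ngfr was closer, at 274 CPM in cKO and 247 CPM in flox Calca-low neurofilament neurons, with members 0.78 and 0.75 log2 units higher. Thy1 stood at 175 CPM in cKO and 227 CPM in flox Calca-low neurofilament neurons, with members 0.95 and 1.34 log2 units higher. Gng8, a G protein gamma subunit, was at 85.5 CPM in cKO members and 4.22 CPM in cKO Calca-low neurofilament neurons, and at 51.5 CPM in flox members and 0.839 CPM in flox Calca-low neurofilament neurons. Pcp4, a calmodulin-binding protein, was lower, at 327 CPM in cKO members and 1808 CPM in cKO Calca-low neurofilament neurons, and at 121 CPM in flox members and 1240.5 CPM in flox Calca-low neurofilament neurons. Nefm was also lower in members than in these cells, at 1212 CPM in cKO members and 2837 CPM in cKO Calca-low neurofilament neurons, and at 1282 CPM in flox members and 2025 CPM in flox Calca-low neurofilament neurons.

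The comparison of the genotypes asks how sensory neurons differ when the surrounding glia lose Ptges3, which encodes p23, a cochaperone of HSP90 also described as a prostaglandin E synthase. Ptges3 (GRCm38 chromosome 10, 128058954 to 128077272, forward strand) was not lower in cKO members. It stood at 356 CPM (323 to 391) in cKO members and 246 CPM (230.2 to 262) in flox members, a ratio of 0.53 (0.37 to 0.70). Per cell it ran from 89.6 to 914 CPM with a median of 369 in cKO members, and from 0 to 479.5 CPM with a median of 232 in flox members, so the cells overlap widely. The other neurons had a similar ratio, with 389.6 CPM in the cKO library and 275 CPM in the flox library, a ratio of 0.50. Barcodes with glial markers above 0.4% of UMIs and few neuron genes, 390 in the cKO library and 2354 in the flox library, had 118 CPM and 238 CPM of Ptges3, a ratio of -1.01 (-1.17 to -0.85). The 3′ counts cannot show whether a transcript still holds the floxed part.

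Of 8562 genes measured with at least 50 UMIs over the members of both libraries, 649 (7.58%) were at least 0.5 log2 units higher in cKO members and 931 (10.9%) at least 0.5 lower, 18.5% in all. The median of all genes was -0.04. Among the 12 highest and 12 lowest genes, genes of glia stood at both ends. Apoe, the lipid carrier, stood at 1085 CPM (1028 to 1145) in cKO members and 232 CPM (217 to 248) in flox members, a ratio of 2.23 (2.10 to 2.35). Per cell it ran from 0 to 3901 CPM with a median of 1064 in cKO members, and from 0 to 1737 CPM with a median of 44.9 in flox members. Fabp7, the fatty acid carrier of satellite glia, was at 440.5 CPM in cKO members and 139.9 CPM in flox members (ratio 1.65), and Phgdh, the first enzyme of serine synthesis, at 58.9 CPM in cKO members and 11.2 CPM in flox members (ratio 2.39). Mbp, a myelin protein, was at 71.8 CPM in cKO members and 303 CPM in flox members (ratio -2.08), and Prx, the periaxin of myelinating Schwann cells, at 3.23 CPM in cKO members and 34.97 CPM in flox members (ratio -3.44). In the other neurons the ratios had the same signs and were smaller. They were 1.04 for Apoe, 0.51 for Fabp7, 0.80 for Phgdh, -0.98 for Mbp and -0.59 for Prx.

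RNA of other cell types was measured in the same members. The 15 glial markers summed to 2821 CPM in cKO members and 3425 CPM in flox members, beside 16704 CPM and 48648 CPM in barcodes low in neuron genes, and none of them was at 0 in either library. Per cell the sum ran from 345 to 9842 CPM with a median of 3173 in cKO members, and from 478 to 25573 CPM with a median of 1891 in flox members. Of 11 glial markers measured, 3 were higher in cKO members and 6 lower. The 6 include Gfra3, which in these data was mostly found in neurons. It stood at 61.9 CPM in the other cKO neurons and 96.3 CPM in the other flox neurons. In barcodes low in neuron genes it was at 3.62 CPM (cKO) and 4.24 CPM (flox). Without members in which they exceeded 0.5% of UMIs, Mbp had a ratio of -0.48, Apoe of 2.01 and Fabp7 of 1.39, and the list's median was 0.02 in place of -0.60. Fibroblast markers summed to 478 CPM in cKO members and 305 CPM in flox members, with none of the 8 at 0. With close sets counted once the fibroblast sums were 305 CPM in cKO members and 306 CPM in flox members, and the list's median was -0.08 in place of 0.76. Macrophage markers summed to 6.45 CPM in cKO members, with 3 of 8 at 0, and 8.81 CPM in flox members, with none at 0. Endothelial and mural markers summed to 35.5 CPM in cKO members and 24.8 CPM in flox members, and 1 of 8 was at 0 in each library. Blood markers summed to 29.8 CPM in cKO members and 1036 CPM in flox members, where 1 cell had 278481 CPM. Central nervous system markers summed to 12.9 CPM in cKO members, with 9 of 14 at 0, and 28.3 CPM in flox members, with 6 of 14 at 0. Only 1 of the 14 was measured, the myelin gene Mag, with a ratio of -4.31. With close sets counted once Mag was at 1.08 CPM in cKO members and 16.1 CPM in flox members. The part of RNA of other cell types in the differences between the genotypes was not tested beyond these values.

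Hspa1a, Hspa1b, Cebpd and Lars2 were higher in cKO members, and Hspa1a and Lars2 were higher in the other cKO neurons by a similar ratio. The heat shock list as a whole had 3 of 15 genes higher and 1 lower. Hspa1a, an inducible heat shock protein, stood at 124 CPM (105 to 145) in cKO members and 23.5 CPM (18.8 to 28.9) in flox members, a ratio of 2.40 beside 2.74 in the other neurons. Hspa1b was at 33.1 CPM in cKO members and 8.54 CPM in flox members, a ratio of 1.95. Lars2, the mitochondrial leucyl-tRNA synthetase, had a ratio of 2.38 in members and 2.49 in the other neurons, at 128 CPM in cKO members and 24.6 CPM in flox members. Cebpd, a transcription factor of acute stress, was at 72.6 CPM in cKO members and 15.2 CPM in flox members. The Cebpd ratio was 2.25 beside 0.88 in the other neurons, and 1.61 in members with close sets counted once. Pcp4 was at 327 CPM in cKO members and 121 CPM in flox members, a ratio of 1.43 beside 0.56 in the other neurons, which was 1.05 with close sets counted once and 0.25 with Calca at 0.4% or more. Hist1h2ap, Ccn1 and Rgcc had ratios of 1.998, 1.78 and 1.58, beside 0.69, 0.24 and 1.01 in the other neurons. Barcodes low in neuron genes had Hspa1a at 724 CPM in cKO and 320 CPM in flox, and Cebpd at 504 and 348 CPM. Lars2 was at 363 and 45.5 CPM there, and Hist1h2ap at 372 and 232 CPM. Ccn1 was at 177 and 229 CPM and Rgcc at 327 and 158 CPM. These levels were above those in members, whereas Pcp4 was lower there, at 14.7 and 25.9 CPM. The part of that RNA in the differences was not tested.

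Ntrk3, Scn4b and S100a16 lay among the lowest. Ntrk3 stood at 38.7 CPM (28.5 to 51.3) in cKO members and 180.2 CPM (167 to 194) in flox members, a ratio of -2.22 (-2.67 to -1.79) beside -0.18 in the other neurons. Ntrk3 was found in 54.2% of cKO and 62.1% of flox members, beside 15.98% of cKO and 22.8% of flox barcodes low in neuron genes, with medians of 17.5 CPM and 24.5 CPM per cell and highest cells at 211 and 979 CPM. Its ratio lay between -3.18 and -1.28 under the alternatives run. Scn4b, a sodium channel beta subunit, was at 8.07 CPM in 4 cKO members and 31.5 CPM in 23 flox members, a ratio of -1.97. S100a16 was at 60.5 CPM in cKO members and 217 CPM in flox members (ratio -1.84), and Polr3g at 41.1 CPM in cKO members and 109 CPM in flox members (ratio -1.40). Patj, a polarity protein, had a ratio of -2.05. Cfap61, Mrgpra1, Gfra3 and Tspan8 had ratios of -2.28, -2.12, -1.81 and -1.54. The ratios of these 4 were 0.26, 0.53, 0.96 and 1.85 when Nefh had to reach 0.05% of UMIs, a limit that keeps 28 cKO and 31 flox members. All 4 were higher in the 47 cKO and 25 flox Calca neurons without Tac1 that missed only the Nefh limit. There Cfap61 stood at 67.3 CPM (cKO) and 111 CPM (flox), and Mrgpra1 at 93.0 and 116 CPM. Gfra3 was at 58.7 and 125 CPM and Tspan8 at 144 and 199 CPM. With close sets counted once Cfap61 had a ratio of -3.00.

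**Figure D4:**
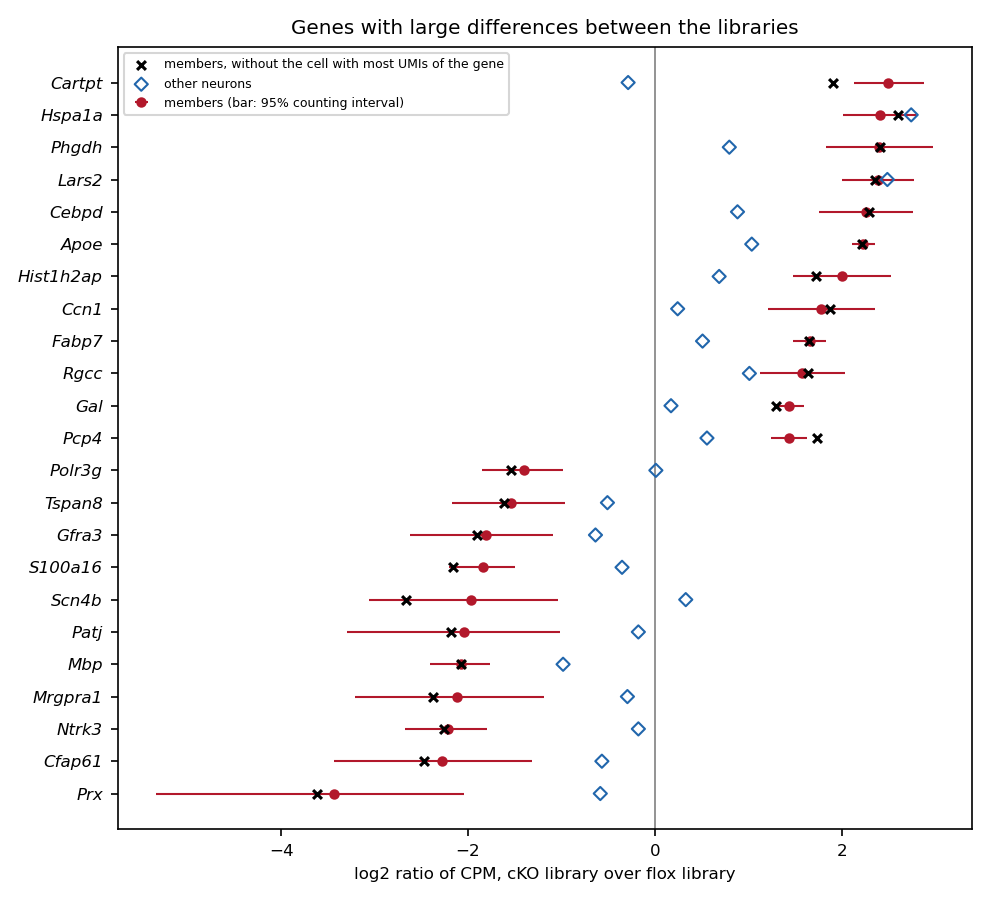
Log2 ratios of cKO over flox for the genes at both ends of the comparison of the genotypes, in members (red points, with 95% counting intervals), in members without the cell that holds most UMIs of the gene (crosses) and in the other neurons (diamonds). Hspa1a and Lars2 have similar ratios in both groups, whereas Ntrk3 (-2.22 in members, -0.18 in other neurons) and Cartpt (2.50 and -0.29) lie apart.

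Among neuropeptides, 2 of 6 measured genes were higher in cKO members and 2 lower, with a median of -0.09. Over all 8562 measured genes 7.58% were higher and 10.9% lower, the shares to set beside this and every other list count. Counts near these shares say nothing particular of a list. Gal stood at 504 CPM (465 to 545) in cKO members and 186 CPM (173 to 201) in flox members, a ratio of 1.44 (1.28 to 1.59) beside 0.17 in the other neurons. Per cell Gal ran from 0 to 2502 CPM with a median of 214 in cKO members, and from 0 to 1379 CPM with a median of 18.6 in flox members, so most of the range is shared. With close sets counted once the ratio was 1.51, and it was 0.53 within the Kit subset, 0.41 under the gate on thinned barcodes and 0.48 after thinning to 5000 UMIs. Cartpt, the peptide CART, stood at 139 CPM in 10 cKO members and 24.6 CPM in 8 flox members, with 65.1% of the cKO UMIs and 46.7% of the flox UMIs in 1 cell each, and its ratio of 2.50 was -2.59 under the gate on thinned barcodes. Calcb, the second CGRP gene, was at 239.6 CPM (213 to 268) in cKO members and 419 CPM (398 to 440.1) in flox members, a ratio of -0.81 (-0.99 to -0.63). Calca itself, which the gate used, had a ratio of -0.43. Nmb, neuromedin B, was at 89.5 CPM in cKO members and 172 CPM in flox members, a ratio of -0.94.

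Peptide processing genes differed little on balance. Of 12 measured, 1 was higher and 3 were lower, with a median of -0.11. Pam, which amidates peptides such as CGRP, stood at 54.9 CPM in cKO members and 27.0 CPM in flox members, a ratio of 1.02. Pcsk2, a prohormone convertase, was at 96.0 CPM in cKO members and 152 CPM in flox members, a ratio of -0.67, and Scg3 had a ratio of -0.55, which was -0.48 with close sets counted once. Of 6 CGRP receptor parts 2 reached 50 UMIs, Ramp3, a receptor accessory protein, with a ratio of 0.97 and Crcp, a receptor component, with a ratio of -0.56. The near-identical cKO cells held 18 of the 33 cKO UMIs of Ramp3 (54.5%), and with close sets counted once its ratio was 0.25.

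Receptors for growth factors were 2 higher and 5 lower of 12 measured, with a median of -0.20, and with close sets counted once 2 were higher and 3 lower. Kit had a ratio of 0.53 (0.29 to 0.75), which was 0.04 under the gate on thinned barcodes. Gfra2, the neurturin receptor, was at 21.8 CPM in cKO members and 10.9 CPM in flox members, and its ratio of 0.99 was -0.31 after thinning. Of 16 sensory transcription factors, 1 was higher and 1 lower, with a median of -0.07. Runx1 stood at 40.3 CPM in 22 cKO members and 13.9 CPM in 20 flox members, a ratio of 1.54 (0.95 to 2.13) beside 0.20 in the other neurons. A Runx1 UMI was found in 45.8% of cKO and 34.5% of flox members, beside 27.6% of cKO and 13.9% of flox barcodes low in neuron genes, and the part of that RNA in the difference was not tested. Etv1 was at 77.4 CPM in cKO members and 135 CPM in flox members, and its ratio of -0.80 was 0.75 with Nefh at 0.05% or more. Isl1 and Pou4f1, shared by sensory neurons, had ratios of 0.16 and -0.34.

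Lists of other sensory classes were lower in cKO members on balance. The mechanoreceptor and proprioceptor list had 6 measured genes, 0 higher and 4 lower, and a median of -0.76, but this median was 0.21 under the gate on thinned barcodes and 0.28 with Calca at 0.4% or more. With close sets counted once 0 of these genes were higher and 3 lower, with a median of -0.51. The non-peptidergic and itch list likewise had 6 measured genes, 0 higher and 4 lower, and a median of -0.92. Mrgpra3 was at 57.3 CPM in cKO members and 135 CPM in flox members, a ratio of -1.23, which turned to 2.07 under the gate on thinned barcodes. Piezo2, the mechanically gated channel of touch, stood at 383 CPM in cKO members and 366 CPM in flox members, a ratio of 0.07 (-0.09 to 0.22). Of 8 measured CGRP subclass genes, 3 were higher and 3 lower, with a median of 0.12. The 3 higher were Kit (0.53), Prokr2 (0.52) and Smr2 (0.56). Under the alternatives run, Smr2 ranged from -1.87 to 1.40 and Kit from 0.04 to 0.78.

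Sodium channels were 0 higher and 3 lower of 13 measured, beside 7.58% higher and 10.9% lower over all measured genes. Their median was -0.36, or -0.19 with close sets counted once. Scn9a, the channel Nav1.7, stood at 382 CPM (349 to 418) in cKO members and 428 CPM (408 to 449.9) in flox members, a ratio of -0.16, and was found in every member. Scn10a was at 289.6 CPM in cKO members and 381 CPM in flox members (ratio -0.40), and Scn11a at 141 CPM in cKO members and 183 CPM in flox members (ratio -0.38). Scn8a, a channel of myelinated axons, was at 48.4 CPM (36.9 to 62.3) in cKO members and 73.9 CPM (65.5 to 83.2) in flox members, a ratio of -0.61. Scn1a was at 21.8 CPM in cKO members and 44.8 CPM in flox members, a ratio of -1.04 that turned to 0.56 after thinning. Scn2a stood at 13.7 CPM in cKO members and 17.6 CPM in flox members, and Scn3a at 21.0 CPM in cKO members and 24.6 CPM in flox members. Scn4a, a muscle channel, was at 0.807 CPM in cKO members and 1.33 CPM in flox members.

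Other channel lists leaned the same way or stayed near 0. Of 27 potassium channel genes, 1 was higher and 7 were lower (median -0.30), with Kcnh7, an ERG-type channel, at 10.5 CPM in cKO members and 24.03 CPM in flox members. Of 10 calcium channel genes, 0 were higher and 1 lower (median -0.07), or 2 higher and 0 lower with close sets counted once, and of 16 transduction channels 1 was higher and 5 were lower (median -0.06). Of 11 inhibitory receptors, 1 was higher and 4 were lower (median -0.32). Of 19 axon and node genes, 1 was higher and 3 were lower (median -0.26), beside 7.58% higher and 10.9% lower over all measured genes. Cntnap2, the Caspr2 of the juxtaparanode, stood at 58.9 CPM (46.2 to 74.0) in cKO members and 125 CPM (114 to 137) in flox members, a ratio of -1.08 beside -0.16 in the other neurons. After thinning its ratio was -0.27.

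Prostanoid receptors were low apart from the prostacyclin receptor. Ptger1 to Ptger4 encode the 4 receptors of prostaglandin E2. Ptger1 stood at 0.807 CPM in cKO members and 3.20 CPM in flox members, and Ptger2 at 0.807 CPM in cKO members and 0.267 CPM in flox members. Ptger3 was at 8.07 CPM (3.87 to 14.8) in cKO members and 8.01 CPM (5.40 to 11.4) in flox members, and Ptger4 at 11.3 CPM (6.17 to 18.9) in cKO members and 11.2 CPM (8.08 to 15.2) in flox members, ratios of 0.01 (-1.19 to 1.08) and 0.01 (-0.98 to 0.91). A Ptger4 UMI was found in 11 of 48 cKO members (22.9%) and 26 of 58 flox members (44.8%), beside 4.97% of cKO and 2.88% of flox barcodes low in neuron genes. These shares were not matched for depth, which was lower in cKO members than in flox members. Ptgir, the prostacyclin receptor, stood at 72.6 CPM (58.4 to 89.2) in cKO members and 8.98 CPM in the other cKO neurons, and at 48.9 CPM (42.0 to 56.5) in flox members and 10.7 CPM in the other flox neurons. Its ratio between the genotypes was 0.57 (0.19 to 0.94) in members and -0.25 in the other neurons. Of 4 prostanoid genes measured, 2 were higher (Ptgir and Ptges3) and 0 lower, with a median of 0.42. Of 16 genes of cAMP signalling, which Ptger4 and Ptgir feed, 0 were higher and 2 lower, with a median of -0.06. Adcy9, an adenylyl cyclase, was at 14.5 CPM in cKO members and 25.9 CPM in flox members, a ratio of -0.83.

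**Figure D5:**
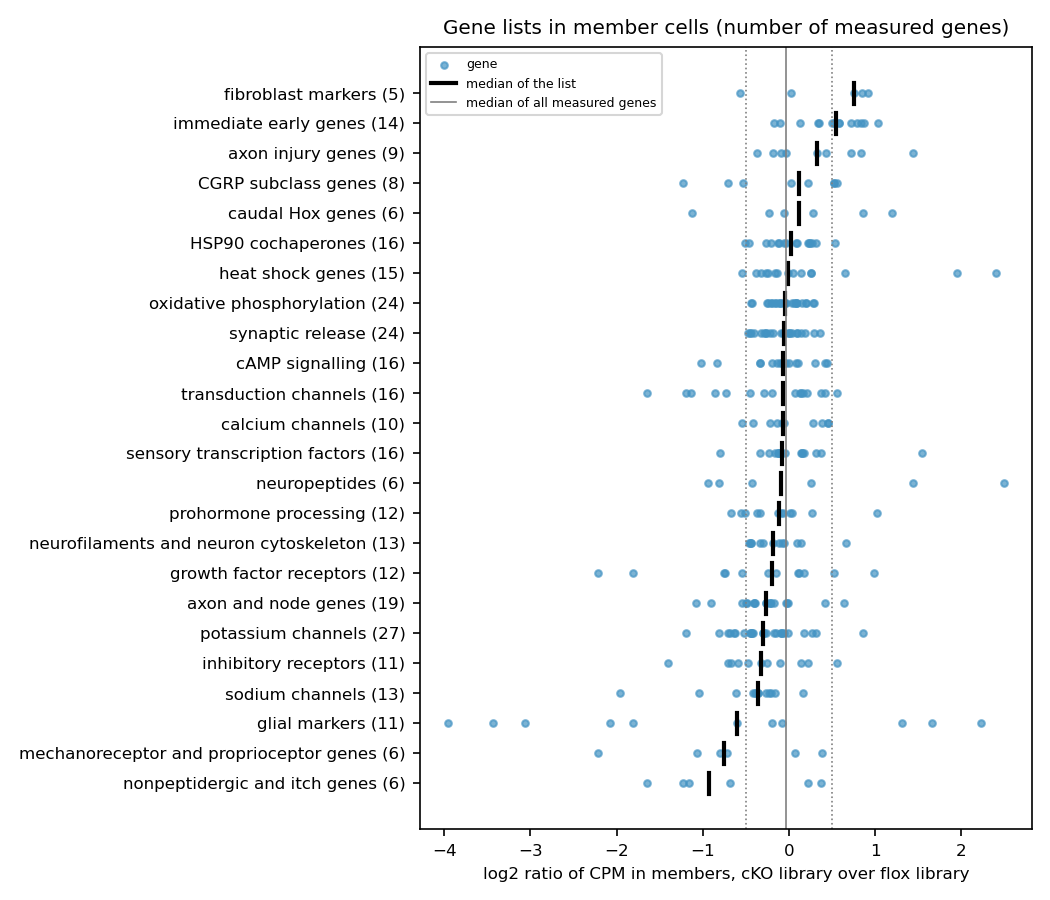
Log2 ratios of cKO over flox in members for each gene list: points are single measured genes, bars mark the median of the list, and the number measured stands after each name. Most immediate early genes lie to the right of 0 (median 0.55), and the mechanoreceptor (median -0.76) and non-peptidergic (median -0.92) genes to the left, whereas synaptic release and oxidative phosphorylation genes stay within 0.5 of 0.

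Among the lists, immediate early genes had the most genes higher in cKO members. Of 14 measured, 9 were higher in cKO members and 0 lower, with a median of 0.55. With close sets counted once, 6 of the 14 immediate early genes were higher and 0 lower, with a median of 0.45. Over all measured genes 7.58% were higher, or 9.38% with close sets counted once. Jun stood at 265 CPM (237 to 296) in cKO members and 160.4 CPM (148 to 174) in flox members, a ratio of 0.73 beside 0.34 in the other neurons. Fos was at 271 CPM in cKO members and 191 CPM in flox members, a ratio of 0.50 beside -0.09 in the other neurons, which was 0.49 with close sets counted once. Nr4a1 was at 35.5 CPM in cKO members and 17.4 CPM in flox members (ratio 1.03), and Junb at 153 CPM in cKO members and 83.8 CPM in flox members (ratio 0.87). With close sets counted once the ratios were 1.30 for Nr4a1 and 0.59 for Junb. These genes are also abundant outside neurons: the list summed to 1831 CPM in cKO members and 1288 CPM in flox members, beside 8167 CPM in cKO and 11369.7 CPM in flox barcodes low in neuron genes. The part of that RNA in the difference was not tested.

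Injury genes were 3 higher and 0 lower of 9 measured, with a median of 0.33. The 3 were Atf3, Gal and Jun, of which Atf3 and Jun are also in the immediate early list. With close sets counted once 4 injury genes were higher and 0 lower, with a median of 0.50. Atf3 stood at 66.1 CPM in cKO members and 37.1 CPM in flox members, a ratio of 0.83 beside 0.61 in the other neurons. Of 15 heat shock genes, 3 were higher and 1 lower, with a median of -0.01, or 2 higher and 0 lower with close sets counted once, and of 16 HSP90 cochaperones 1 was higher and 1 lower, with a median of 0.03. The cochaperone that was higher was Ptges3 itself, and Hsp90ab1, the constitutive HSP90, stood at 3267 CPM in cKO members and 4509.6 CPM in flox members, a ratio of -0.46.

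Lists of general neuron function moved little. Of 24 synaptic release genes and 24 nuclear genes of oxidative phosphorylation, 0 passed 0.5 log2 units in either direction, with medians of -0.06 and -0.05. With close sets counted once, 2 of the oxidative phosphorylation genes were lower. Of 13 neurofilament and cytoskeleton genes, 1 was higher, Vim, and 0 lower, with a median of -0.18. With close sets counted once 1 of these was higher and 1 lower, with a median of -0.27. Vim, an intermediate filament also abundant in glia, stood at 716 CPM in cKO members and 452 CPM in flox members, and was found in 99.2% of cKO and 93.4% of flox barcodes low in neuron genes. Hox genes of caudal body levels had 6 measured members, 2 higher and 1 lower, and a median of 0.11, and of 14 rostral Hox genes 1 was measured, Hoxa5, with a ratio of -0.22.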

How the data were processed

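Single-cell RNA of P4 mouse dorsal root ganglia was measured in 1 cKO and 1 flox library. The deposited values are UMI counts per gene and cell barcode, which the authors made with Cell Ranger 5.0.1 on mm10 and handled in Scanpy per the submitters' processing notes, while the file headers name cellranger 6.1.2. These counts are whole numbers with a different total in each barcode.

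From the counts, barcodes were gated with Python 3.11.15, numpy 2.4.6, scipy 1.17.1 and pandas 2.3.3, and counts of the members were summed per library and scaled to CPM. With 1 library per genotype no test was run. Intervals for levels are exact Poisson, those for shares Clopper-Pearson, and those for ratios conditional binomial, all at 95%, and they cover counting error only. Genes with at least 50 UMIs over both libraries count as measured, and a difference of 0.5 log2 units is called higher or lower; between classes 10 CPM was added and 1 log2 unit was required in both libraries. The text names the sodium channels, the gate genes, Ptges3 and the prostaglandin E2 receptors. Between the genotypes it names 12 genes at each end, ranked by the side of the interval closer to 0, and between members and other neurons 12 at each end, ranked by the smaller of the libraries' differences, all with at least 100 UMIs. It draws further on the 12 most variable genes and, of lists with 5 or more measured genes, on the 2 at each end of the list. Gate genes were left out of these rankings, as were genes that are predicted, on sex chromosomes (Y and X inactivation), mitochondrial, or code for globins or ribosomal proteins. Other genes, those of the subsets included, were chosen after their values were seen.

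The members and lists were chosen with earlier results of these data known. The comparison classes were Calca neurons with Tac1, neurofilament neurons with Calca under 0.05%, all other neurons, and barcodes under 0.1% in neuron genes. A further class was Calca neurons without Tac1 that missed only the Nefh limit. Doublets were not removed: Scrublet, run in scanpy 1.11.5, set a threshold that called 4 cKO and 0 flox barcodes and so did not work, and among the highest scores (590 cKO and 693 flox barcodes) were 0 cKO members and 1 flox member. Scaling factors came from edgeR 4.0.16 and DESeq2 1.42.0 in R 4.3.3. The ratios, their intervals and the thinning were tried on simulated counts. The simulated sums held counting error only, so they cannot show the effect of variation between cells. The gate, classes and subsets were not simulated. Gene positions are from the GRCm38 annotation, which matched 32235 of 32285 gene IDs. Some genes these rules pick are not reported here. Alternatives changed the gate, depth, filter, scaling or members 1 at a time.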

Additional observations from a re-analysis of the deposited data

How the results depend on the processing

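Values are log2 ratios of cKO over flox in members unless named otherwise. TMM and DESeq2 factors turned the sign of no named ratio past 0.5, while Ptger4, at 0.01, was -0.01 and 0 under them. Thinned to 5000 UMIs, 1970 genes were measured, of which 197 genes were higher (10%) and 229 lower (11.6%) in cKO members, 29 stood above and 4 below the other neurons, Ptges3 was 0.76, Gfra2 -0.31, Scn1a 0.56, Smr2 -1.73 and Trappc3l 0.27. With mean cell CPM, Ptges3 was 0.79, Scn1a 0.11 and Smr2 -0.40, and 33 genes stood below the other neurons. With at least 200 UMIs per gene, 165 of 4038 were higher, 285 lower and 21 below the other neurons; with no filter on low counts there were, of 17093 genes, 3596 genes higher in cKO members and 4359 genes lower in cKO members, and the mechanoreceptor list had a median of 0.39. Under the gate on thinned barcodes members made up 2.70% of flox neurons, and the ratios were Adra2c -0.10, Apod 0.75, Cartpt -2.59, Cfap61 0.060, Etv1 0.92, Gfra3 0.81, Mrgpra1 0.77, Mrgpra3 2.07, Smr2 -0.60, Tspan8 1.58 and the mechanoreceptor median 0.21. With Nefh at 0.05% or more they made up 1.22% in cKO and 1.90% in flox neurons, with Abca5 0.53, Cartpt -2.06, Cfap61 0.26, Etv1 0.75, Gfra3 0.96, Mrgpra1 0.53, Mrgpra3 1.85, Scg3 0.085 and Tspan8 1.85. With Calca at 0.4% or more the values were 0.480% in cKO and 1.96% in flox neurons, with Col1a2 -0.50, Col3a1 -0.32, Etv1 0.28, the fibroblast median -0.76 and the mechanoreceptor median 0.28. With Tac1 at most 0.01%, Cartpt was -0.55, and with glial markers at most 0.5% the glial median was 0.019. The next 3 alternatives were chosen after seeing the data. Without members of 50 CPM Mrgpra3 or more, 156 genes stood above and 79 below the other neurons, members made up 1.53% of cKO neurons, Col1a2 was -0.19, Col3a1 -0.66 and the fibroblast median -0.66. Without the top member of each gene, Apod was 0.72 and Smr2 -1.87, and with near-identical members counted once Col3a1 was -0.078 and the fibroblast median -0.078. The causes were not tested. Of the gene values under alternatives, 1688 moved less than the counting error, 342 moved more and 34, all of ratios past 0.5, changed sign; of 1005 values of smaller ratios, 119 had the other sign. No paired analysis was possible because each genotype has 1 library. Depth limits genes of a few UMIs, above all in cKO members.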
